A study of Mus musculus with 8 samples.

Results

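Transcripts of 10 genes of distal calcium and magnesium handling were examined in whole-kidney messenger RNA from 8 mouse libraries: the channels Trpm6 and Trpv5, the calcium-binding proteins Calb1, S100g and Pvalb, the exchanger Slc8a1, the pumps Atp2b1 and Atp2b4, the calcium-sensing receptor Casr and the magnesium transport protein Cnnm2. They were chosen by name, for their place in this pathway and with earlier results of these data known, and all 10 were found among the 15948 genes of the deposited table. The study concerns Arhgef11, a guanine nucleotide exchange factor, in hypertension and kidney injury. The labels named 5 libraries Sglt2Cre DOCA (called control here) and 3 libraries Arhgef11Sglt2 DOCA. In hypertension research DOCA is the mineralocorticoid deoxycorticosterone acetate, and both groups carry it in their labels, so no kidney without it was analysed here. The control label names an Sglt2 Cre, and the Arhgef11Sglt2 label together with the series title names a loss of Arhgef11 limited to the proximal tubule. Sglt2 (Slc5a2) marks the early proximal tubule, upstream of the segments in which most of these 10 genes are known to act. Strain, age, sex, dose and duration are not in the labels, and the labels do not state that the libraries came from separate animals, so p-values measure the spread between these libraries, part of which may be technical.

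In the kidney, most filtered calcium and magnesium is taken back before the distal nephron, through the space between cells, and the last adjustable part is carried through the cells of the distal convoluted and connecting tubules. There calcium enters through the luminal channel TRPV5, crosses the cytosol bound to calbindins and leaves through the sodium-calcium exchanger and the plasma membrane calcium pumps. Magnesium enters through TRPM6, and CNNM2 is needed on the blood side. The calcium-sensing receptor acts mainly in the thick ascending limb, where it restrains the uptake of calcium between cells.

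RefSeq promoter sequences (build GRCm38.p6, another build than the GRCm39 of the deposited values) were held for 9 of the 10 genes. The 250 bases before 1 annotated start are shown for 3 of them: Slc8a1, whose transcript had the largest difference between the groups, S100g, the gene with the smallest, and Trpv5, the calcium entry channel. Capitals mark matches, on either strand, to AGGTCA (the half-site bound by nuclear receptors such as the vitamin D receptor) or TATAAA (the TATA box). Slc8a1 lies on the minus strand at chr17:81738388-81738637, S100g on the minus strand at chrX:162964600-162964849 and Trpv5 on the minus strand at chr6:41680724-41680973.
Slc8a1: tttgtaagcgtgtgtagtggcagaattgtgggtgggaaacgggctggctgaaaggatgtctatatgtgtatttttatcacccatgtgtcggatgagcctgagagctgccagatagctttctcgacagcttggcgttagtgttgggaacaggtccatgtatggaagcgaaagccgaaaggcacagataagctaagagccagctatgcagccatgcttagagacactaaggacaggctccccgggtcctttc
S100g: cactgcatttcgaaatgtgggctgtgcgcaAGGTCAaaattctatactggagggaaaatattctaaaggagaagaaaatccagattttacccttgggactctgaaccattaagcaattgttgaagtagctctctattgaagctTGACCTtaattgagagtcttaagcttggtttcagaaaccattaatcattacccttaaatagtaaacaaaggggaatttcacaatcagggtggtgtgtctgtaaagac
Trpv5: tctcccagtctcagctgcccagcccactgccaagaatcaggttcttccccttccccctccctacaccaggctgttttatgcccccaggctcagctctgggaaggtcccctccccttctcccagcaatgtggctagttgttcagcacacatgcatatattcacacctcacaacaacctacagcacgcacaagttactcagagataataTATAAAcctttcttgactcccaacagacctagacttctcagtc
In the S100g stretch AGGTCA began 220 bases before the annotated start on the gene's strand and lay on the other strand 107 bases before it. In the Trpv5 stretch TATAAA began 43 bases before the annotated start. Of the 11 stretches held for these 9 genes, 1 had AGGTCA (14.02% of all 32851 promoters of this length) and 1 had TATAAA (12.4% of all). Such matches describe the letters only.

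In limma, a linear model fitted over all genes, 0 of the 10 genes had a Benjamini-Hochberg adjusted p under 0.05, where 354 of all genes did (2.22%), 100 of them higher (0.627%) and 254 lower (1.59%). With the libraries scaled to equal totals the split over all genes was 164 higher and 215 lower, and again none of the 10 passed. At an unadjusted limma p of 0.05, 5 of the 10 were lower and 0 were higher, where 21.1% of all genes were past it, 12.1% lower and 9.04% higher. These 5 were Slc8a1, Casr, Atp2b4, Pvalb and Calb1. The differences were negative for 8 of the 10 genes (52.1% of all genes were negative), and their median log2 difference was -0.24 against -0.0070 over all genes. The groups did not overlap for 2 of the 10, both lower, as for 14.3% of all genes, 8.14% lower and 6.2% higher. The lowest of the 8 libraries was Arhgef11Sglt2 replicate 3 for Trpv5, Slc8a1, Atp2b4 and Cnnm2. It was replicate 1 of that group for Trpm6, Calb1 and Casr, replicate 2 for Pvalb, and a control for S100g and Atp2b1. The share of all genes with their lowest value in an Arhgef11Sglt2 library was not counted. Such a value does not by itself show a lower group, as the difference of Trpm6 was positive. In whole-kidney RNA, fewer cells of a type and less RNA per cell cannot be told apart.

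**Figure D1:**
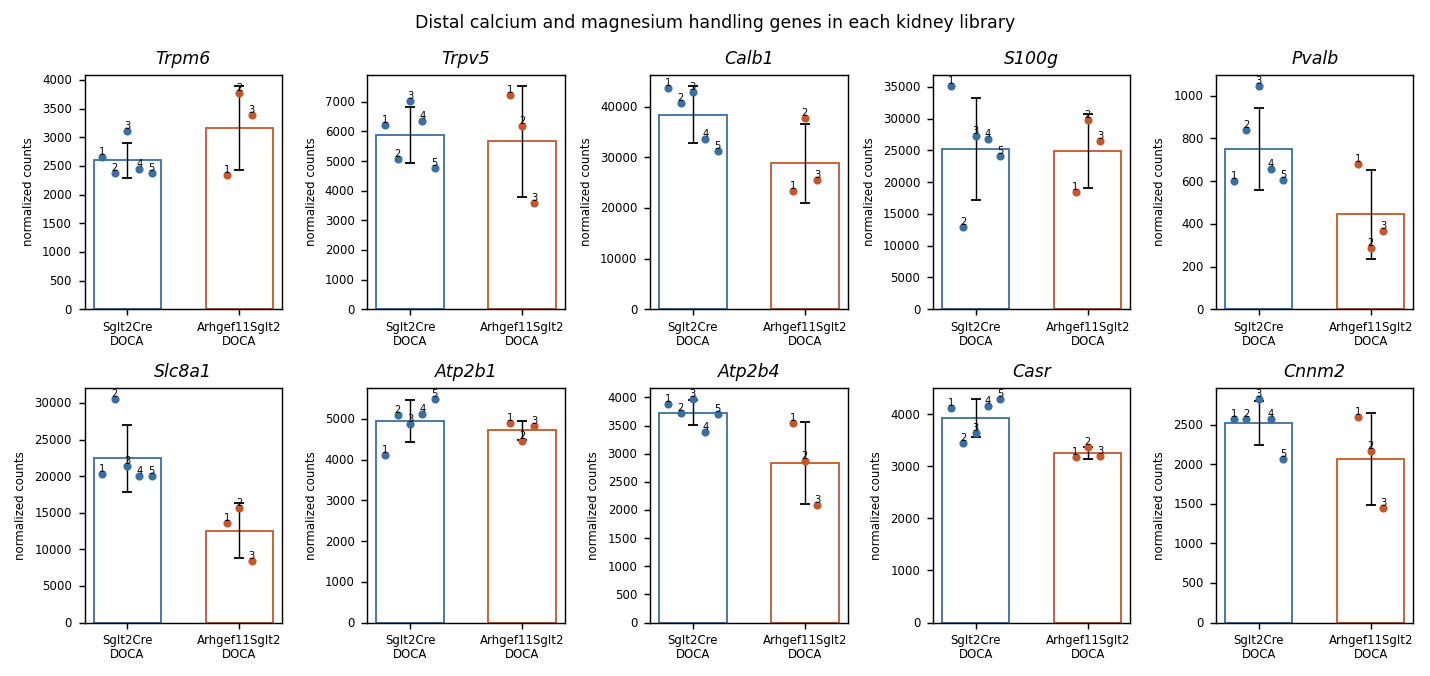
Normalized counts of the 10 genes (vertical axes, each starting at 0) in the 5 Sglt2Cre DOCA libraries (blue) and the 3 Arhgef11Sglt2 DOCA libraries (orange); points are libraries with their replicate number, bars are group means and error bars are SD. The groups do not overlap for Slc8a1 and Casr and overlap for the other 8 genes.

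Sglt2Cre DOCA and Arhgef11Sglt2 DOCA libraries had between 43040000 and 46680000 normalized counts in all, so the values below are on a common scale. The reads behind them were estimated from the spacing of the lowest values. They numbered 33100000 to 59500000 among the controls and 51500000 to 58500000 among the Arhgef11Sglt2 libraries. Of the controls only replicate 3 reached that depth. The targeted transcript did not check the labels: mean Arhgef11 was 3680 normalized counts for the controls (SD 162, n = 5) and 3587 for the Arhgef11Sglt2 group (SD 564, n = 3; limma adjusted p = 0.834), so directions refer to libraries as labelled. Umod, the most abundant protein of the thick ascending limb, had 188453 to 229031 normalized counts, and Slc12a3 (NCC, the sodium-chloride cotransporter that defines the distal convoluted tubule) had 80152 to 116283, so the distal segments were well represented in each library. The numbers in the library names fall into a lower range (control replicates 1 to 3, Arhgef11Sglt2 replicates 1 and 2) and a higher range (control replicates 4 and 5, Arhgef11Sglt2 replicate 3). The labels speak of more than 1 numbered study without saying which library belongs to which, so differences within these ranges are given beside the pooled ones or, for Calb1, S100g, Pvalb, Atp2b1 and Casr, after them. Each difference within the higher range rests on 1 Arhgef11Sglt2 library, replicate 3, and the range cannot be told apart from that library.

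Levels were compared between genes per kilobase, dividing the normalized counts by the median length of the gene's protein-coding transcripts in GENCODE M21. In the control libraries S100g (calbindin-D9k) stood highest, at 52655 ± 16705 normalized counts per kilobase (SD, n = 5). Calb1 (calbindin-D28k) followed at 9104 ± 1348 and Slc8a1 at 7061 ± 1432, and the ranges of these 2 genes overlapped. Trpv5 had 2237 ± 359, apart from its neighbours on either side. Casr (913 ± 84.6), Pvalb (778 ± 199), Atp2b1 (694 ± 71.7), Cnnm2 (630 ± 69.1) and Atp2b4 (589 ± 35.3) formed a run in which each gene overlapped the next. Trpm6 was lowest, at 399 ± 47.4 per kilobase, below every control value of Atp2b4. The place of Slc8a1 depends on the transcript taken: with the longest one (18.5 kilobases in place of 3.18) it had 1216 ± 247 per kilobase, under Trpv5 at 1817 ± 292, and Atp2b4 (318 ± 19.1) then came below Trpm6. In the Arhgef11Sglt2 libraries S100g again had the most, 51941 ± 12109 per kilobase (SD, n = 3), and Slc8a1 had 3949 ± 1167.

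The entry channels came first in the comparison of the groups. Trpv5 (ENSMUSG00000036899), the luminal calcium channel of the late distal convoluted and connecting tubules, had 6229, 5079, 7040, 6348 and 4762 normalized counts in control replicates 1 to 5, and 7240, 6172 and 3582 in Arhgef11Sglt2 replicates 1 to 3. The Arhgef11Sglt2 libraries thus held both the highest and the lowest of the 8 values. The log2 difference was -0.09 (SE 0.20, 95% interval -0.53 to 0.35, limma adjusted p = 0.832), and it was 0.18 without Arhgef11Sglt2 replicate 3. Within the lower library numbers it was 0.13 and within the higher ones -0.55. Trpm6 (ENSMUSG00000024727), the magnesium channel of the distal convoluted tubule, had 2655, 2382, 3109, 2451 and 2378 normalized counts among the controls and 2343, 3764 and 3382 among the Arhgef11Sglt2 libraries. Replicates 2 and 3 of that group lay above every control and replicate 1 below every control. The log2 difference was 0.23 (SE 0.13, 95% interval -0.06 to 0.52, limma adjusted p = 0.349). Without Arhgef11Sglt2 replicate 1 it was 0.40, with a limma adjusted p of 0.0464, while 3.62% of all genes were called higher in that fit; over the alternatives tried the adjusted p ran from 0.0464 to 0.711. Without replicate 2 of that group the difference was 0.11, and within the lower and higher library numbers it was 0.12 and 0.41.

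None of the cytosolic calcium-binding proteins was called with all libraries, and they were not tested against each other. Calb1 (ENSMUSG00000028222), the buffer that ferries calcium across distal cells, had 43769, 40704, 42936, 33539 and 31246 normalized counts among the controls and 23269, 37727 and 25476 among the Arhgef11Sglt2 libraries. Replicates 1 and 3 of that group were under every control, and replicate 2 lay among them. The log2 difference was -0.43 (SE 0.17), its 95% interval ran from -0.81 to -0.04, and limma gave an adjusted p of 0.195 and an unadjusted p of 0.0329. S100g (ENSMUSG00000040808), the smaller calbindin, had 35182, 12965, 27290, 26764 and 24170 normalized counts among the controls and 18484, 29770 and 26541 among the Arhgef11Sglt2 libraries. Its spread among the controls was the widest of the 10 genes, with a coefficient of variation of 31.7%, and control replicate 2 was its lowest library. The log2 difference was 0.02 (SE 0.28, limma adjusted p = 0.976), and the 95% interval from -0.60 to 0.64 leaves room for a change in either direction. Pvalb (ENSMUSG00000005716), parvalbumin, a buffer of the early distal convoluted tubule, had 603, 841, 1047, 656 and 607 normalized counts among the controls and 680, 288 and 364 among the Arhgef11Sglt2 libraries. Replicates 2 and 3 of that group lay under every control, while replicate 1 lay among them. The group means of 751 ± 192 and 444 ± 208 give a 1.69-fold lower level, and the log2 difference was -0.46 (SE 0.16, limma adjusted p = 0.153) on the deposited scale, which compresses low values, and -0.82 on the scale of log2(normalized count + 1). Without Arhgef11Sglt2 replicate 1 the difference for Pvalb was -0.65 with a limma adjusted p of 0.0318 (4.74% of all genes were called lower there), within a range of 0.0318 to 0.432 over the alternatives. Parvalbumin is also a protein of fast skeletal muscle, and the 2 skeletal muscle markers measured, Acta1 and Mylpf, summed to 19.7 to 66.0 normalized counts in the controls and 15.6 to 33.6 in the Arhgef11Sglt2 libraries.

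The largest difference among the 10 genes was that of Slc8a1 (ENSMUSG00000054640), the sodium-calcium exchanger NCX1 of the blood-facing membrane. It had 20345, 30537, 21392, 20005 and 19997 normalized counts among the controls and 13585, 15646 and 8439 among the Arhgef11Sglt2 libraries. All 3 Arhgef11Sglt2 values were below all 5 controls, with replicate 3 lowest and control replicate 2 standing above the other controls. The level was 1.79-fold lower (22455 ± 4554 against 12557 ± 3712, SD, n = 5 and 3), and 1.63-fold lower without control replicate 2. The log2 difference was -0.84 (SE 0.20), its 95% interval ran from -1.28 to -0.39, limma gave an adjusted p of 0.0631, and the exact permutation test (two-sided, 56 splits) gave 0.0179, the smallest p it can give. Slc8a1 ranked 485 among 15948 genes by p. It passed the threshold in 3 of the alternative fits: with library number range as a block (limma adjusted p = 0.0314, where 1.82% of all genes were called lower), without Arhgef11Sglt2 replicate 1 (0.0472) and without Arhgef11Sglt2 replicate 2 (0.0436, 1.88% of all genes called lower). The adjusted p over all alternatives ran from 0.0314 to 0.197, and the log2 difference from -1.01 to -0.58. Within the lower library numbers the difference was -0.68 and within the higher ones -1.19. Slc8a1 is also expressed in smooth muscle, whose 4 markers (Acta2, Myh11, Cnn1, Tagln) summed to 3433 to 6834 normalized counts among the controls and 2409 to 5439 among the Arhgef11Sglt2 libraries. None of the 4 was called, all 4 differences were negative, and their part in the result was not tested.

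Neither of the plasma membrane calcium pumps was called with all libraries, and they were not tested against each other. Atp2b1 (ENSMUSG00000019943), which encodes PMCA1, the widely expressed pump, had 4119, 5104, 4880, 5134 and 5490 normalized counts among the controls and 4890, 4449 and 4822 among the Arhgef11Sglt2 libraries, which all lay within the range of the controls. Its log2 difference was -0.06 (SE 0.09, 95% interval -0.25 to 0.14, limma adjusted p = 0.759). Atp2b4 (ENSMUSG00000026463), which encodes PMCA4, had 3877, 3717, 3972, 3385 and 3708 normalized counts among the controls and 3547, 2870 and 2093 among the Arhgef11Sglt2 libraries. Replicates 2 and 3 of that group were under every control, and only replicate 1 reached the control range. The level was 1.32-fold lower, and the log2 difference was -0.36 (SE 0.12, 95% interval -0.64 to -0.09, limma adjusted p = 0.141), with 0.0357 by the exact permutation test. Without Arhgef11Sglt2 replicate 1 it was -0.51 with a limma adjusted p of 0.0257, within a range of 0.0257 to 0.425 over the alternatives, and without replicate 3 it was -0.19. Within the lower library numbers the difference was -0.24 and within the higher ones -0.64. In the fit without Arhgef11Sglt2 replicate 1, 4 of the 10 genes passed, Slc8a1, Atp2b4 and Pvalb lower and Trpm6 higher, where 8.36% of all genes were called.

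Cnnm2 (ENSMUSG00000064105), a basolateral protein that distal cells need to keep magnesium, had 2568, 2570, 2824, 2577 and 2067 normalized counts among the controls and 2602, 2162 and 1449 among the Arhgef11Sglt2 libraries. Replicate 3 alone lay below the controls. The log2 difference was -0.25 (SE 0.14, 95% interval -0.57 to 0.06, limma adjusted p = 0.328), -0.067 without Arhgef11Sglt2 replicate 3, -0.13 within the lower library numbers and -0.53 within the higher ones. Casr (ENSMUSG00000051980), the calcium-sensing receptor, had 4111, 3445, 3643, 4154 and 4290 normalized counts among the controls and 3173, 3379 and 3194 among the Arhgef11Sglt2 libraries. The groups did not overlap, as was so in the lower direction for 8.14% of all genes, but control replicate 2 (3445) and Arhgef11Sglt2 replicate 2 (3379) lay close. The level was 1.21-fold lower (log2 difference -0.24 with an SE of 0.08, limma adjusted p = 0.136, exact permutation p = 0.0357). Casr is a gene of the thick ascending limb, and of the 6 markers of that segment none was called, 5 had a negative difference, and the sums were 273765 to 323562 normalized counts among the controls and 232099 to 279756 among the Arhgef11Sglt2 libraries. Their part in the difference of Casr was not tested.

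**Figure D2:**
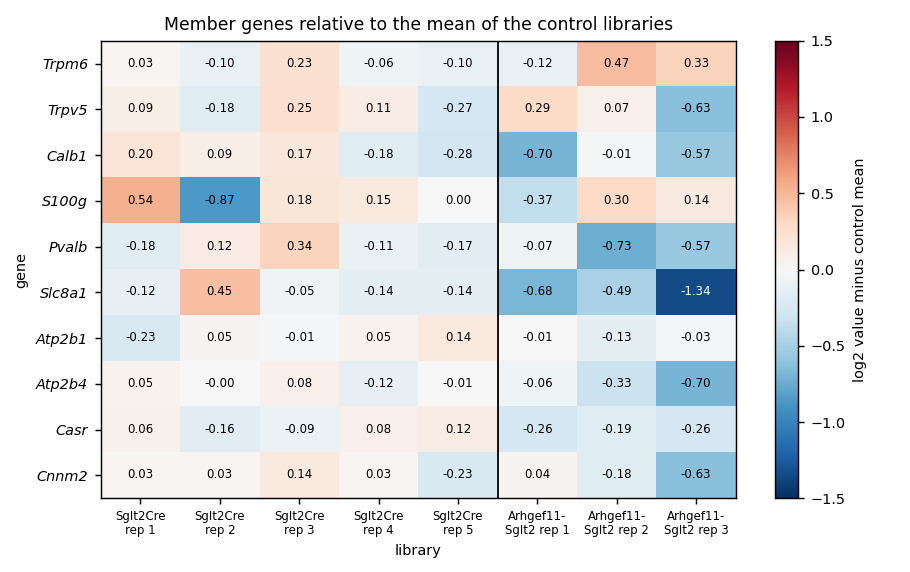
Deposited log2 value of each gene (rows) in each library (columns) minus the mean of the 5 control libraries, with the value printed in each cell and colour from blue (lower) to red (higher). Slc8a1 is at -0.68, -0.49 and -1.34 in the Arhgef11Sglt2 libraries, while Trpm6 is at 0.47 and 0.33 in replicates 2 and 3.

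The plot of centred values shows that the controls differed among themselves, for example from -0.87 to 0.54 for S100g and from -0.27 to 0.25 for Trpv5. The 3 Arhgef11Sglt2 libraries also had different patterns over the 10 genes. Replicate 1 was low in Calb1 (-0.70 relative to the controls on the log2 scale) and Slc8a1 (-0.68) but not in Atp2b4 (-0.06), Cnnm2 (0.04) or Trpv5 (0.29). Its S100g (-0.37) lay above that of control replicate 2 (-0.87). Replicate 2 was low in Pvalb (-0.73), Slc8a1 (-0.49) and Atp2b4 (-0.33) and had control-like Calb1 (-0.01). Replicate 3 was low in Slc8a1 (-1.34), Atp2b4 (-0.70), Trpv5 (-0.63), Cnnm2 (-0.63), Pvalb (-0.57) and Calb1 (-0.57), but not in Trpm6 (0.33) or S100g (0.14). Slc8a1 and Casr were the 2 genes below all controls in each of the 3 libraries. For the genes not yet given within the lower and the higher library numbers, the log2 differences there were -0.51 and -0.34 for Calb1, 0.01 and 0.06 for S100g, -0.50 and -0.43 for Pvalb, -0.01 and -0.13 for Atp2b1, and -0.16 and -0.35 for Casr, each with the sign of its pooled difference.

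As a reading beside a marker of the distal convoluted tubule, 9 of the genes (all but Casr) were expressed as a percentage of the Slc12a3 counts in the same library. Some of them, such as Atp2b1, Trpv5 and Slc8a1, are also expressed outside that segment, so the ratios are not levels within it. Slc12a3 itself had 99072 ± 13257 normalized counts among the controls and 84690 ± 4666 among the Arhgef11Sglt2 libraries (log2 difference -0.22, limma adjusted p = 0.368). Slc8a1 was at 22.1%, 26.3%, 19.5%, 21.5% and 23.6% of Slc12a3 in control replicates 1 to 5 and at 15.2%, 18.5% and 10.5% in Arhgef11Sglt2 replicates 1 to 3. The groups still did not overlap, although control replicate 3 and Arhgef11Sglt2 replicate 2 lay close. The log2 ratio differed by -0.65, with an exact permutation p of 0.0179 (two-sided, 56 splits), the smallest possible, and of 0.161 after adjustment over the 9 ratios. Against the mean of the 7 distal convoluted tubule markers in place of Slc12a3 the difference was -0.75.

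The other ratios overlapped between the groups. Trpm6 was at 2.05% to 2.89% of Slc12a3 in the controls and at 2.62%, 4.46% and 4.22% in the Arhgef11Sglt2 libraries, so that replicates 2 and 3 lay above all controls (log2 difference 0.48, exact permutation p = 0.0893, adjusted p = 0.268). Pvalb was at 0.656% to 0.956% in the controls and at 0.760%, 0.342% and 0.455% in the Arhgef11Sglt2 libraries (log2 difference -0.60, exact permutation p = 0.0893, adjusted p = 0.268). The exact permutation p of the other 6 ratios was 0.562 or more after adjustment over the 9, and the log2 differences were -0.22 for Calb1, 0.24 for S100g, 0.12 for Trpv5, 0.16 for Atp2b1, -0.21 for Atp2b4 and -0.10 for Cnnm2.

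**Figure D3:**
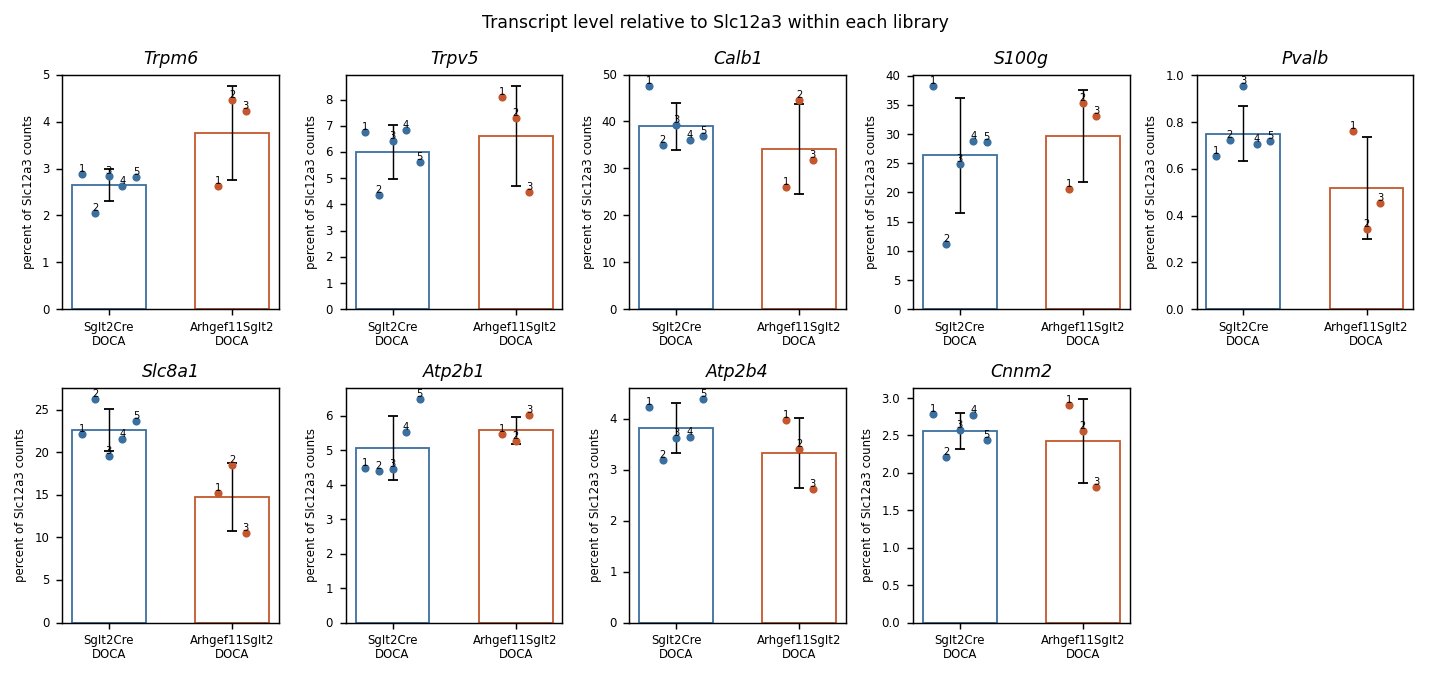
Normalized counts of 9 genes as a percentage of Slc12a3 counts in the same library (vertical axes, starting at 0), by group; points are libraries with their replicate number, bars are means and error bars are SD. Slc8a1 lies at 19.5% to 26.3% in the controls and 10.5% to 18.5% in the Arhgef11Sglt2 libraries.

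Markers of the cells that could carry these genes were read beside them. None of the 7 distal convoluted tubule markers was called and none had an unadjusted limma p under 0.05; 6 had a negative difference, and they summed to 119118 to 162304 normalized counts among the controls and 116772 to 124092 among the Arhgef11Sglt2 libraries. Of the 8 connecting tubule and principal cell markers 0 were called, with 18236 to 27564 counts against 18942 to 27913. Of the 6 intercalated cell markers 0 were called, with 15125 to 16984 counts against 12156 to 15472. At an unadjusted limma p under 0.05, 2 of these 8 connecting tubule and principal cell markers, 2 of the 6 intercalated cell markers and 3 of the 6 thick ascending limb markers (median log2 difference -0.33) were lower and 0 higher. Of the proximal tubule markers 2 of 6, Lrp2 and Slc34a1, were lower (1.59% of all genes were called lower), all 6 differences were negative, and the sums were 349630 to 391733 in the controls and 199459 to 313479 in the Arhgef11Sglt2 libraries. Endothelial markers (0 of 4 called) ran from 7128 to 14289 and from 9229 to 11270, and macrophage markers (0 of 3 called) from 3693 to 5137 and from 2389 to 4481. Adipocyte markers (0 of 3 called) summed to 3.21 to 1047 in the controls, with the most in replicate 2, and to 90.9 to 347 in the Arhgef11Sglt2 libraries. No marker list was at 0 in every library. The part of these shifts in the values of the 10 genes was not tested.

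Other genes of calcium and magnesium handling were read from 4 lists. Cldn16, Cldn19, Slc12a1, Kcnj1 and Umod, in the thick ascending limb list, and Wnk4 and Hsd11b2, in the hormone list, are also cell markers above. The readings of those lists and markers are therefore not independent. Of 47 measured genes 4 were lower and 0 higher in limma over all genes, 1 in each list, where 1.59% of all genes were called lower and 0.627% higher. With equal totals 1 was lower (Kl) and 1 higher (Cnnm1). Among 15 genes of magnesium transport and its regulators (16 listed), Pcbd1, a transcriptional cofactor linked to renal magnesium wasting, was 1.35-fold lower (5955 ± 319 against 4422 ± 558 normalized counts, limma adjusted p = 0.0474). The list's median log2 difference was 0.04. Egf, the precursor of the growth factor that stimulates TRPM6, had 46526 to 62837 normalized counts among the controls and 24721, 44793 and 17199 among the Arhgef11Sglt2 libraries (log2 difference -0.94, limma adjusted p = 0.0788). The groups did not overlap, but replicate 2 came close to the controls. Cnnm1, a relative of Cnnm2, had 499 to 602 normalized counts among the controls and 658, 1198 and 1673 among the Arhgef11Sglt2 libraries. Its mean was 2.16-fold higher (log2 difference 0.66 on the deposited scale, which compresses low values, limma adjusted p = 0.0704), and it passed with equal totals. Magt1, a gene linked to magnesium uptake, had 5673 ± 453 against 4003 ± 1288 (limma adjusted p = 0.118).

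Among 10 genes of calcium transport (12 listed), Atp2b2, which encodes the pump PMCA2, was 1.96-fold lower: it had 267, 214, 207, 185 and 242 normalized counts in the controls and 144, 94.0 and 103 in the Arhgef11Sglt2 libraries (log2 difference -0.35 on the deposited scale, which compresses low values, limma adjusted p = 0.0424). The groups did not overlap. Atp2b2 was thus the pump gene that passed the test, at a level far under that of Atp2b1 and Atp2b4. Trpv6, the calcium channel closest to Trpv5, had 177 to 271 normalized counts among the controls and 397, 290 and 303 among the Arhgef11Sglt2 libraries, with no overlap. Its mean was 1.41-fold higher (log2 difference 0.22 on the same compressed scale, limma adjusted p = 0.156). Trpv4, a mechanosensitive and osmosensitive cation channel, had 4668 ± 426 against 3595 ± 1085 (limma adjusted p = 0.190). The median log2 difference of the list was -0.13.

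Among 9 genes of the thick ascending limb route, Cldn10, a claudin with a cation-pore isoform in this segment and an anion-pore isoform in the proximal tubule, which the gene-level value does not separate, was lower (log2 difference -0.54, limma adjusted p = 0.0476, and 0.0523 with library number range as a block). Slc12a1 (NKCC2), the cotransporter that sets the voltage for calcium and magnesium uptake, had 50198 to 72682 normalized counts among the controls and 43081, 42801 and 31657 among the Arhgef11Sglt2 libraries (limma adjusted p = 0.0536). Cldn14, the claudin that blocks this route when the calcium receptor is active, had 6.86 to 23.7 normalized counts in the controls. The Arhgef11Sglt2 libraries had 31.2, 37.3 and 71.8, a 3.36-fold higher mean. Its log2 difference was 0.26 on the deposited scale, which compresses low values (limma adjusted p = 0.0791). Cldn3, a sealing claudin, had a log2 difference of 0.30 (limma adjusted p = 0.135). The list's median was -0.23.

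Among 13 hormone regulators, Kl, which encodes klotho, a co-receptor of FGF23 known to raise TRPV5 at the cell surface, was lower. Kl had 47337, 44698, 49053, 48974 and 49864 normalized counts among the controls and 27806, 30007 and 21340 among the Arhgef11Sglt2 libraries, with all 3 far under the controls. It was 1.82-fold lower (log2 difference -0.86, SE 0.11, limma adjusted p = 0.0152). Pth1r, the parathyroid hormone receptor, had 16120 ± 1152 against 12982 ± 816 (limma adjusted p = 0.0908), and Hsd11b2, the enzyme that shields the mineralocorticoid receptor from cortisol and corticosterone, had 6237 ± 1001 against 4163 ± 1007 (limma adjusted p = 0.0885). The median of the list was 0.04.

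**Figure D4:**
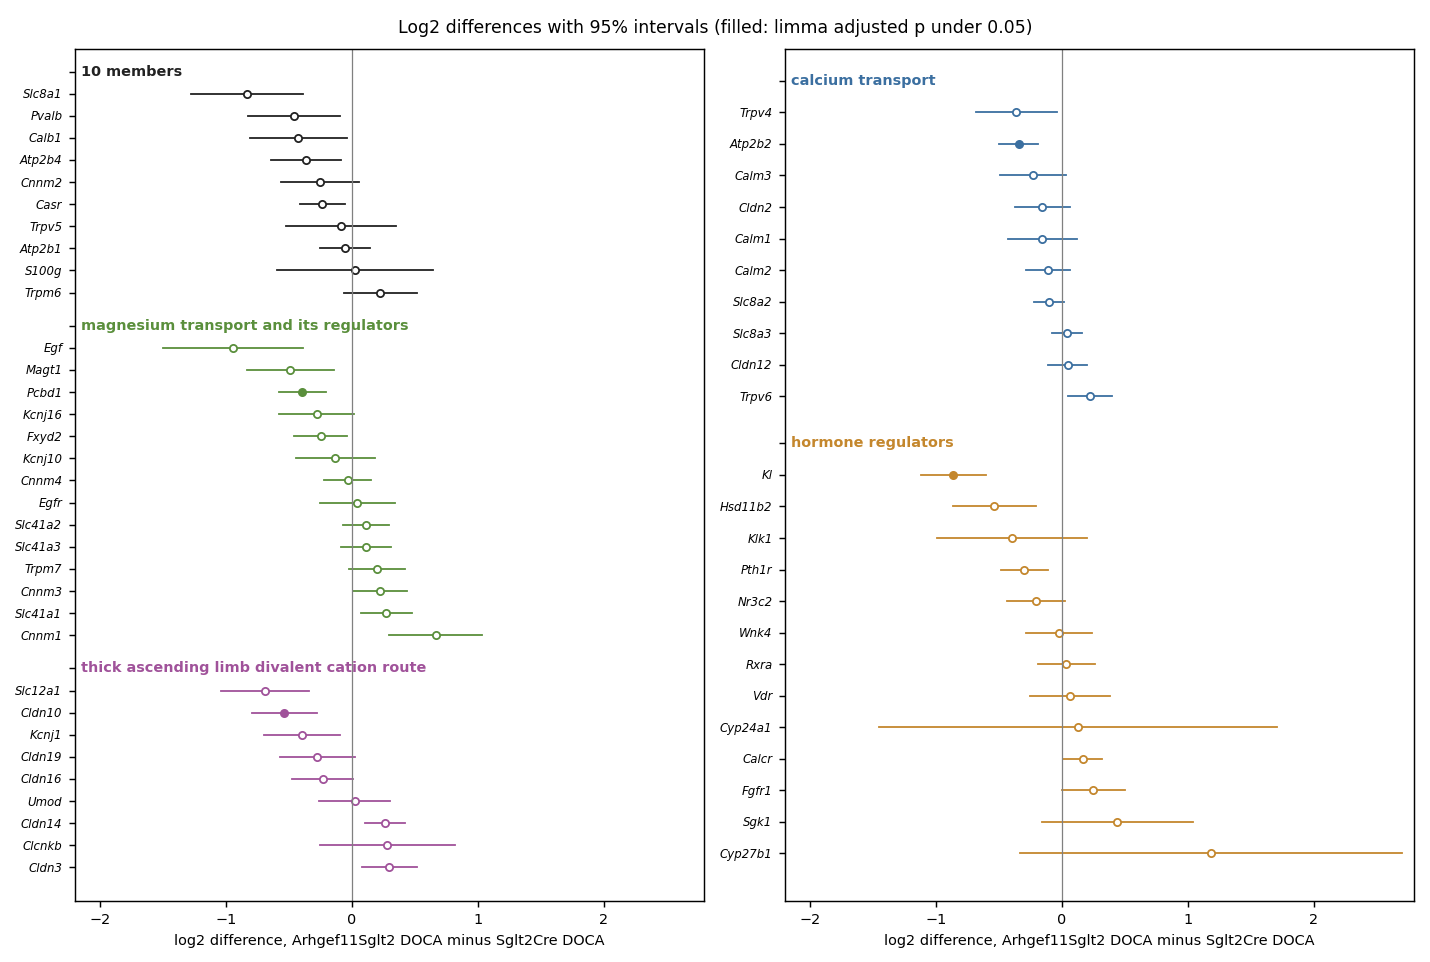
Log2 differences (Arhgef11Sglt2 DOCA minus Sglt2Cre DOCA, horizontal axis) with 95% intervals for the 10 genes and for the genes of 4 related lists, 1 magnesium gene left out; filled points have a limma adjusted p under 0.05. Filled points are Pcbd1, Atp2b2, Cldn10 and Kl, all lower; the interval of Slc8a1 runs from -1.28 to -0.39.

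Leaving out single libraries ended most of these calls. Pcbd1, Atp2b2 and Cldn10 each missed the limma threshold without any 1 of the 5 controls (adjusted p of 0.0588 or more) and without Arhgef11Sglt2 replicate 3 (0.156 to 0.180), as did Atp2b2 (0.0838) and Cldn10 (0.0834) without replicate 2 of that group. With equal totals these 3 also missed it (limma adjusted p of 0.0502 to 0.0668). Kl missed it, among the fits that left out a library, without control replicate 4 alone (limma adjusted p = 0.0565), and its log2 difference ran from -0.96 to -0.72.

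The genes most like the 3 genes with the widest range over the 8 libraries were ranked by Pearson correlation of deposited values over those 8 libraries, among 14942 named genes, as a description. For Slc8a1 these were Tnfaip8 (r = 0.991), Adipor2 (r = 0.990) and Glb1l (r = 0.987). Tnfaip8 had its highest level, 16767 normalized counts, in control replicate 2 and its lowest, 2856, in Arhgef11Sglt2 replicate 3, the same libraries as for Slc8a1. For S100g they included Mtcp1 (r = 0.951) and Bahd1 (r = 0.944), whose lowest library was control replicate 2. For Pvalb they were Stard3nl (r = 0.973), Aspg (r = 0.958) and Mrps14 (r = 0.942). Stard3nl and Aspg were lowest in Arhgef11Sglt2 replicate 2, as Pvalb was, and Mrps14 in replicate 3. Spearman correlations of these 8 genes lay between 0.714 and 0.976. Depth and group differ between the libraries, as dissection may, and are common to all genes of a library. Each r is the highest of many.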

How the data were processed

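Poly(A) RNA of 8 kidney samples was sequenced as stranded TruSeq libraries, per the labels' protocols. Salmon 1.10.0, build GRCm39 and DESeq2 are named, per the submitters' processing notes; annotation and gene filter are not stated. Deposited values are log2 numbers after variance stabilization, read so because all columns share a minimum of 8.13, the value of a zero count. Its closed form was inverted to normalized counts, which carry folds and levels. Of the low values 27.8% to 54.2% per library lay within 0.02 steps of a whole read, so whole reads could not be restored and count models were left aside. Tests ran on the deposited log2 values in limma 3.58.1 (R 4.3.3), with group as the term, a variance trend and adjustment over 15948 genes. Exact permutation tests covered 56 splits. Symbols matched 15902 identifiers. The scripts were first tested on simulated data. Named genes were Arhgef11, Slc5a2, Slc12a3, the 10 genes, those of the 4 lists that passed plus at most 3 per list with the smallest p, and the 3 genes most correlated with each of the 3 most variable genes, of which 1 is not reported here. Cell markers were named from their lists, and the vitamin D genes after their values were seen. The genes and lists were chosen with earlier results of these data known. Slc5a2 had 18544 ± 2557 against 14289 ± 3563 normalized counts. Alternatives covered a filter (mean of at least 50 normalized counts), log2(normalized count + 1) and + 10, equal totals, no variance trend, blocks for replicate and library number range, and each library left out. The differences within library number ranges were added after seeing the data.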

Additional observations from a re-analysis of the deposited data

Results flagged for a closer look

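Among the 5 control libraries, Slc8a1 in replicate 2 stood apart: the gap to the next library was 0.841 of the group's whole range on the log2 scale, above the limit of 0.71 for 5 samples. It had 30537 normalized counts there against 19997 to 21392 in the other controls. Adipocyte markers were highest in the same library (Adipoq 382, Plin1 333 and Cidec 332 normalized counts). So were the distal convoluted tubule markers other than Emx1, with Slc12a3 at 116283 normalized counts. The connecting tubule and principal cell markers (27564 normalized counts) and the intercalated cell markers (16984) also had their highest control sums there. The smooth muscle (3433), endothelial (7128), podocyte (4314) and macrophage markers (3693) had their lowest control sums there. Slc8a1 was at 26.3% of Slc12a3 there, against 19.5% to 23.6% in the other controls. The part of these markers in the Slc8a1 value of control replicate 2 was not tested. Without that library the log2 difference between the groups was -0.72. The other 9 genes had no such library, and chance alone gives about 1 in 20 groups.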

How the results depend on the processing

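Of the 10 genes 0 were called under the filter, the other log2 scales, equal totals, no variance trend and the replicate block (5 at an unadjusted limma p under 0.05 in the fit as reported). With library number range as a block 1 was called, and leaving out 1 library gave 0 to 4. Over all genes leaving out 1 library gave 24 calls (without control replicate 4) to 1334 (without Arhgef11Sglt2 replicate 1), against 354. Of the 47 related genes 4 were called; equal totals gave 2 (Kl lower, Cnnm1 higher), and leaving out 1 library gave 0 to 12. On the log2 scale, leaving out 1 library gave -0.28 to 0.18 for Trpv5 and -0.20 to 0.22 for S100g; for ratios to Slc12a3 it gave -0.052 to 0.38 for Trpv5, -0.042 to 0.48 for S100g and -0.25 to 0.10 for Cnnm2. The cause of these shifts was not tested. Replicate numbers gave no sign of pairing: same-numbered libraries had correlations of -0.176, -0.088 and -0.0068, and differently numbered ones -0.088 to 0.107. So few pairs cannot exclude a pairing. With the replicate block limma called 0 of all genes (2166 at an unadjusted p under 0.05) and 0 of the related genes (14 unadjusted), and Atp2b1 had a log2 difference of 0.0092 with it. In that fit the group difference rests on replicates 1 to 3, as replicates 4 and 5 are controls only. That fit also has fewer residual degrees of freedom than the fit as reported, so its count of calls is not directly comparable. Few libraries limit the precision: the 95% interval of S100g spans changes in both directions.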

Other observations

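Both enzymes that set the renal level of active vitamin D differed widely between libraries within both groups; these genes were chosen after their values were seen. Cyp24a1, which breaks down active vitamin D and is a target of its receptor, had 8474, 5846, 3208, 11458 and 3482 normalized counts in the controls and 3092, 2437 and 30689 in Arhgef11Sglt2 replicates 1 to 3 (limma adjusted p = 0.940). Cyp27b1, which makes active vitamin D, had 1900, 281, 1919, 629 and 447 in the controls and 1712, 10894 and 637 in Arhgef11Sglt2 replicates 1 to 3 (limma adjusted p = 0.348). Vdr, the receptor, had 12161 ± 1352 against 12905 ± 2977 normalized counts (limma adjusted p = 0.832).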
